A study of Homo sapiens with 52 samples.

Results

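HNRNPA1 was knocked down in human neurons, and the RNA of their neurites was compared with that of neurites carrying a nontargeting guide. All libraries of the HNRNPA1 experiment whose labels name the neurite fraction were taken, 6 knockdown and 6 control libraries, which are 12 of the 52 libraries of the series. The 12 soma libraries of the same experiment, 6 of each kind, entered the same statistical fit and serve for comparison. The neurons were i3Neurons, made from the WTC11 induced pluripotent stem cell line by a neurogenin-2 transgene under doxycycline control. The stem cells were transduced with a single guide RNA for CRISPR interference, which blocks transcription from a gene's start site, and were selected before differentiation, so the guide was present throughout. Controls and knockdown cells shared the line, the transgene, doxycycline and harvest at day 17. On day 3 the neurons were replated onto inserts whose membrane has 1 µm pores, which neurites pass and cell bodies do not, and 10 ng of RNA from each side went into a total RNA library. The side of the cell bodies also keeps the neurites that stay above the membrane. The labels number the libraries 1 to 6 in each group, and nothing in them tells whether a number stands for a culture of its own. The p-values therefore cover the variation among these libraries alone, and that may be technical.

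HNRNPA1 is an abundant RNA-binding protein of the hnRNP A/B family. It shuttles between nucleus and cytoplasm, represses the use of exons near its binding sites, and acts in the translation, stability and granule storage of messages. Mutations in its prion-like domain occur in amyotrophic lateral sclerosis and multisystem proteinopathy. A neurite is an axon or dendrite, whose local RNA includes messages for ribosomal proteins, mitochondrial proteins, cytoskeleton and synapses. 7SL RNA is the scaffold of the signal recognition particle, which brings ribosomes that make secreted and membrane proteins to the endoplasmic reticulum, and it is among the most abundant noncoding RNAs of a total RNA library.

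3 genes of the 7SL family, RN7SL1, RN7SL4P and RN7SL5P, held most of the 7SL counts. In GENCODE release 29 their transcripts are 299, 295 and 321 bases long, and they are so alike that short reads cannot always be told apart. RN7SL4P was 86.1% identical to RN7SL1 in a pairwise alignment and RN7SL5P 85.5%. Of the 50-base windows, 34.1% of those of RN7SL4P and 58.8% of those of RN7SL5P occur unchanged in RN7SL1. The levels of the single genes are therefore uncertain, and the family, 850 genes and pseudogenes in the table, was summed.

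7SL RNA made up a larger share of the counts in knockdown than in control neurites. In control neurites it took 5.55% of all counts in the lowest library, a median of 11.1% and 12.2% in the highest. In knockdown neurites the lowest share was 10.1%, the median 13.7% and the highest 18.5%, so the groups overlapped. The means were 10.4 ± 2.46% and 14.1 ± 2.91% (SD, n = 6 each; 2-sided exact permutation test, p = 0.0303, adjusted p = 0.0303 over 9 measures). Control sample 3, the library with 5.55%, also stood apart from the other controls in raw counts over all genes. That comparison included the 7SL counts, so it was not independent of this share. Without control sample 3 the difference was 2.76 percentage points (adjusted p = 0.0714, exact permutation). The call was also lost without control sample 1 (0.0519), knockdown sample 1 (0.0649), 5 (0.0541) or 6 (0.0606). RN7SL1 alone held 64.7% of the 7SL counts of control neurites and went from 6.72 ± 1.62% to 9.28 ± 1.89% of all counts (SD, n = 6 each; log2 change 0.61 ± 0.19 SE, edgeR adjusted p = 0.0264). RN7SL5P had a log2 change of 0.68 ± 0.20 (adjusted p = 0.0174), while RN7SL4P, at 0.39 ± 0.17, was not called (adjusted p = 0.111). None of the 8 genes for the proteins of the signal recognition particle was called, and their median log2 change was -0.06.

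Ribosomal RNA and mitochondrial RNA also took larger shares in knockdown neurites, and messages of cytosolic ribosomal proteins a smaller one. Nuclear ribosomal RNA, summed over 549 genes and pseudogenes, rose from 1.58 ± 0.486% (0.949 to 2.21%) to 2.48 ± 0.401% (2.03 to 3.15%; exact permutation, adjusted p = 0.0117). Mitochondrial ribosomal RNA rose from 2.04 ± 0.426% (1.36 to 2.52%) to 3.11 ± 0.416% (2.44 to 3.57%; exact permutation, adjusted p = 0.00974). Messages for the mitochondrially encoded proteins rose from 4.48 ± 0.502% to 5.65 ± 0.783% (exact permutation, adjusted p = 0.0195). The groups overlapped in each of these 3 measures. Cytosolic ribosomal protein messages fell from 2.34 ± 0.165% (2.19 to 2.60%) to 1.91 ± 0.137% (1.76 to 2.12%), with no overlap, and p was the smallest that 6 against 6 libraries allow (0.00216; adjusted p = 0.00974, exact permutation). With 7SL and ribosomal RNA taken out of the total, the mitochondrial messages still rose (5.21 ± 0.583% to 7.08 ± 1.26%, exact permutation p = 0.00866) and the ribosomal protein messages still fell (2.72 ± 0.243% to 2.38 ± 0.194%, exact permutation p = 0.0173).

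**Figure D1:**
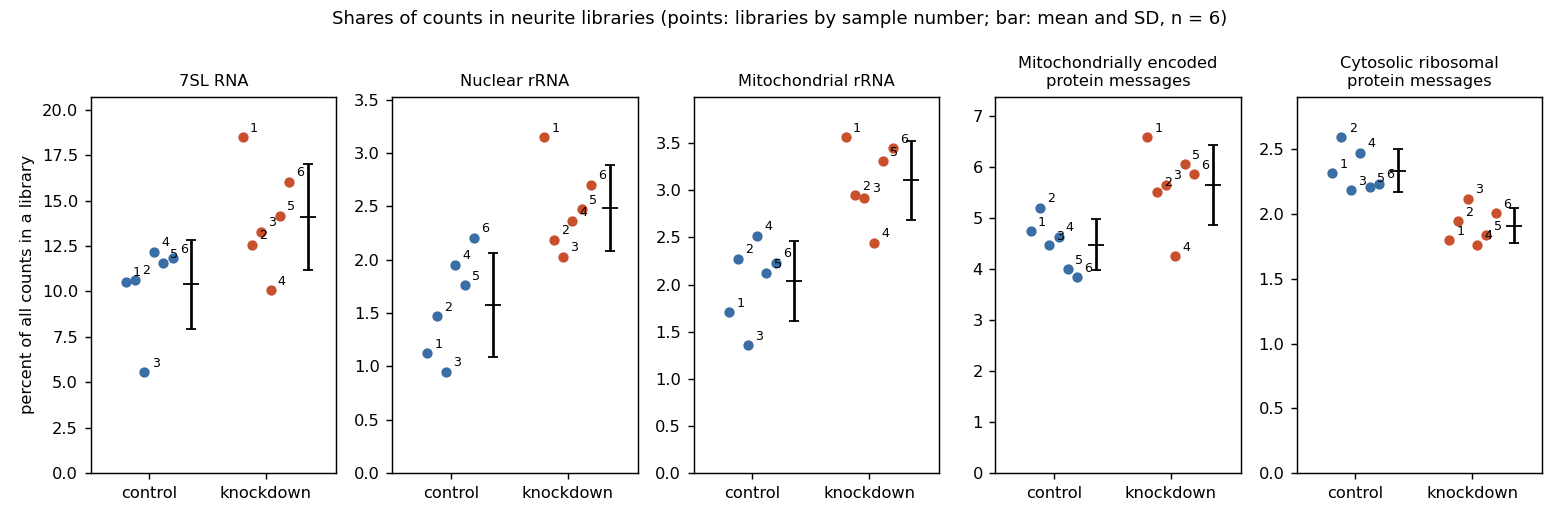
Share of all counts (y axis, percent, from 0) of 5 RNA groups in the 6 control and 6 knockdown neurite libraries; points are libraries with their sample numbers, bars the mean ± SD. Control sample 3 is lowest in 7SL RNA at 5.55%, and cytosolic ribosomal protein messages are the group whose libraries do not overlap.

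The same shares in other groups put these differences in scale. In soma the means of control and knockdown were 2.29 and 3.02% for 7SL, 2.77 and 3.79% for nuclear ribosomal RNA, 0.465 and 0.650% for mitochondrial ribosomal RNA and 1.29 and 1.25% for ribosomal protein messages. In neurites of untreated cells, made with another version of the kit, 7SL took a mean of 1.42%, and in control neurites of the TDP-43 experiment 27.4%. The 7SL share thus differed more between control groups of different experiments than between HNRNPA1 knockdown and its control. Knockdown neurite libraries were also shallower, with 6.26e+06 to 9.66e+06 counts against 8.63e+06 to 1.50e+07, and had at least 5 counts in 19259 ± 786 genes against 22462 ± 1920 (SD, n = 6 each; exact permutation, adjusted p = 0.00974 for each). The 10 most abundant genes took 21.0 ± 3.58% against 15.6 ± 2.78% (exact permutation, adjusted p = 0.0162). With 7SL and ribosomal RNA genes taken out before the fit the gene calls described below were 1744 higher and 1416 lower, close to those of the whole table. With the shares as covariates they were fewer, and since the shares move with the groups these effects cannot be told apart. The part of depth was not tested.

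Neuron markers (11 genes, among them MAP2, NEFL and STMN2) summed to 10754 to 13350 counts per 1e6 (CPM, scaled by TMM factors) in control and 12613 to 14323 CPM in knockdown neurites. Markers of neural progenitors (11 genes) summed to 459 to 569 and 577 to 722 CPM, without overlap, most of it NES. Those of cycling cells summed to 41.5 to 50.1 and 35.5 to 52.6 CPM, of mesenchymal cells to 6.37 to 10.8 and 6.83 to 10.7 CPM, and of astrocytes and oligodendrocytes to 17.6 to 22.2 and 20.3 to 22.9 CPM, most of it MBP. Of the 6 markers of pluripotent cells 5 were under a mean of 1 CPM in both groups, and TDGF1 was at 0 in every knockdown library. Nuclear-retained noncoding RNAs took 0.301 ± 0.0335% of the counts of control and 0.261 ± 0.0201% of knockdown neurites (exact permutation, adjusted p = 0.0195). With 7SL and ribosomal RNA out of the total these were 0.349 ± 0.0258% and 0.325 ± 0.0145% (exact permutation, p = 0.0628), and the call was also lost without knockdown sample 1 (adjusted p = 0.0584, exact permutation) or 6 (0.0511).

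HNRNPA1 itself (ENSG00000135486.19, chr12:54280193-54287088, plus strand, hg38) checked the labels. Its level in control neurite samples 1 to 6 was 606, 621, 585, 623, 548 and 554 CPM. In knockdown neurite samples 1 to 6 it was 216, 182, 205, 192, 189 and 223 CPM. Every knockdown library lay far below every control, and the mean was 34.1% of the control mean (log2 change -1.55 ± 0.06, edgeR adjusted p = 1.5e-19). In soma the change was -1.36 ± 0.06, and the difference between fractions did not pass the test (adjusted p = 0.46). HNRNPA1L3, a related gene on chromosome 16, had a log2 change of -1.68 ± 0.11, and 45.5% of the 50-base windows of its transcript occur in HNRNPA1, so its level is uncertain.

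In knockdown neurites 1775 of 19812 genes tested rose (8.96%) and 1428 fell (7.21%), together 16.2%, at an adjusted p under 0.05 in edgeR's quasi-likelihood test. Only 158 of these changed more than 2-fold, 91 of them higher, and the median absolute log2 change of the called genes was 0.34. Libraries of the groups did not overlap for 787 genes higher in knockdown (3.97% of those tested) and 561 lower (2.83%). In soma 751 genes rose (3.79%) and 653 fell (3.3%), 7.09% in all. Both fractions called 785 genes, 24.5% of the neurite calls and 55.9% of the soma calls, and 784 of them changed in the same direction. The numbers moved with the scaling: without TMM factors the median of all genes shifted by -0.14 on the log2 scale and 605 genes rose against 3825 lower. With the 7SL share as a covariate 819 rose and 1102 fell, and with the ribosomal RNA share 285 rose and 426 fell. Without control sample 3, 1080 rose and 1396 fell. Lower RNA per neurite and fewer neurites of a kind cannot be told apart in these bulk libraries.

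**Figure D2:**
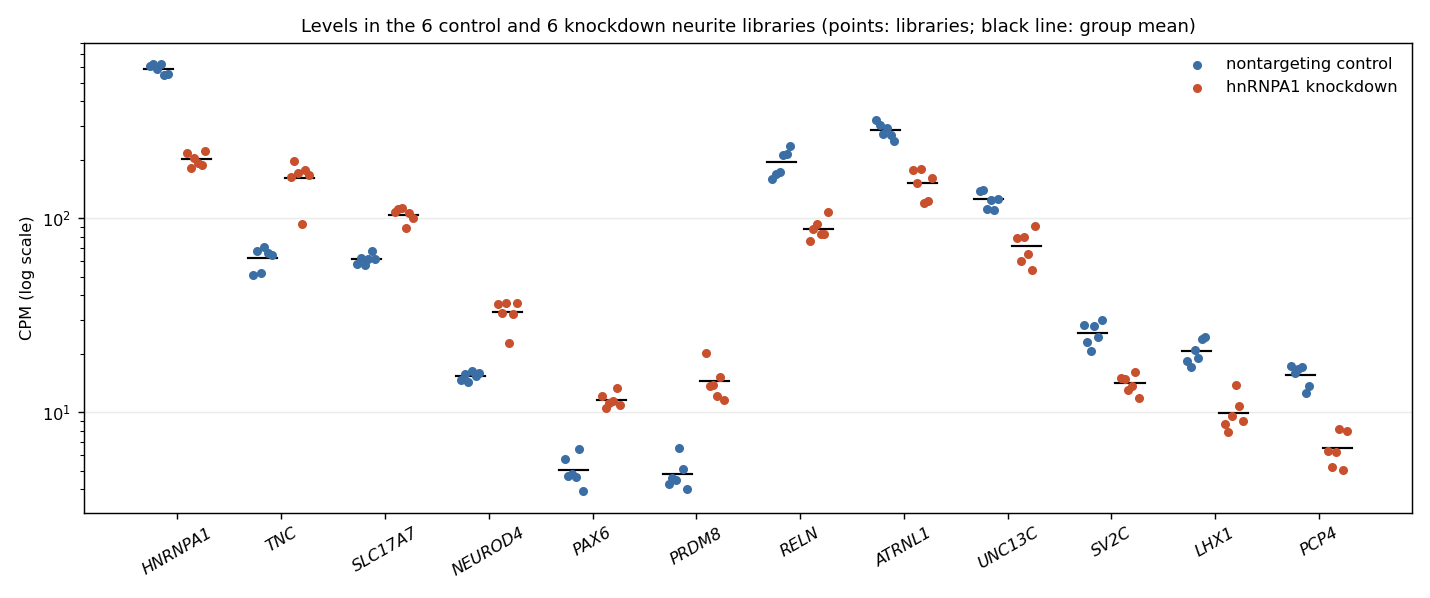
Levels of 12 genes in each neurite library (CPM, log axis), control and knockdown side by side; points are libraries and lines group means. HNRNPA1 lies between 548 and 623 CPM in controls and between 182 and 223 CPM in knockdown, and TNC, SLC17A7 and PRDM8 are higher in every knockdown library than in any control.

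Genes of neuronal subtype identity and patterning were among those that changed most. Of 46 transcription factors measured 17 rose and 9 fell (median log2 change 0.14, against 0.00 for all genes), which became 11 and 12 without TMM factors and 10 and 5 with the ribosomal RNA covariate. Over all genes 8.96% rose and 7.21% fell. PRDM8, a transcriptional repressor of the developing nervous system, had 4.03, a median of 4.50 and at most 6.54 CPM in controls and 11.5, 13.8 and 20.1 CPM in knockdown (log2 change 1.59 ± 0.12, adjusted p = 7.6e-11). PAX6, a factor of neural progenitors and eye, went from 3.91, 4.73 and 6.48 CPM to 10.5, 11.3 and 13.3 CPM, a mean of 229% of the control mean (adjusted p = 4.1e-08). Neither gene's groups overlapped, and both were called higher in soma too (1.56 and 1.27). ZIC1 (0.82) and 3 proneural relatives, NEUROD4 (1.09), NEUROD1 (0.86) and NEUROD2 (0.60), also rose. NEUROG2, which encodes the factor that the inducing transgene also supplies, rose by 0.59 ± 0.13 (adjusted p = 0.0015), and reads of transgene and gene were not separated here. NEUROD4 lay at 22.7 CPM in knockdown sample 4 against 34.2 CPM at the group median, and at 14.3 to 16.3 CPM in controls.

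The factors that fell include several known from motor neuron and interneuron lineages. LHX1 (chr17:36936785-36944612, plus strand), a LIM-homeodomain factor, had 17.1, 20.01 and 24.5 CPM against 7.87, 9.30 and 13.7 CPM (-1.05 ± 0.11, adjusted p = 3.9e-08; soma -1.06). All knockdown libraries were below all controls. LHX1-DT, a noncoding RNA that starts 123 bases away on the opposite strand, fell to 42.2% of the control mean (adjusted p = 1.8e-08). ISL1 (-0.82), the motor and sensory neuron factor, and EBF2 (-0.49) fell as well, and so did TAL1 (-1.06) outside that list. PRPH, the peripheral neuron intermediate filament, went from 6.20, 6.71 and 8.75 CPM to 2.19, 3.14 and 4.25 CPM (-1.19 ± 0.15, adjusted p = 1.3e-06), and PCP4, a calmodulin-binding peptide of Purkinje cells, from 12.6, 16.3 and 17.3 CPM to 5.02, 6.29 and 8.17 CPM (-1.25 ± 0.14, adjusted p = 9.5e-08). The noncoding RNA RMST fell by 1.04 ± 0.13 in neurites and 0.47 in soma. Beside these, NES (0.40), PAX6 and GLI3 (0.54) rose among 9 progenitor markers measured and none fell; the GLI3 call was lost without control sample 3 or knockdown sample 3 or 6 (adjusted p up to 0.0797). The part of the progenitor markers in the other changes was not tested.

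Of 32 genes of the extracellular matrix 8 rose and 2 fell (7 and 6 without TMM factors, 3 and 3 with the ribosomal RNA covariate). Of all genes 8.96% rose and 7.21% fell, and the lower share of the list was near the latter. TNC, the matrix glycoprotein tenascin-C (chr9:115019578-115118257, minus strand), had 51.1, 65.2 and 71.2 CPM in controls and 93.0, 169 and 196 CPM in knockdown. Its groups did not overlap, with knockdown sample 4 the lowest of its group (log2 change 1.39 ± 0.11, adjusted p = 5.5e-11; soma 1.698). Fibrillar collagen genes COL5A1 (1.08), COL5A2 (1.07) and COL27A1 (0.79) and SPARC (0.60), which binds collagen, rose too. RELN, the secreted guide of neuronal migration reelin (chr7:103471784-103989516, minus strand), had 158, 192 and 236 CPM in controls and 76.2, 85.1 and 108 CPM in knockdown. All knockdown libraries lay below all controls (-1.13 ± 0.08, adjusted p = 3.1e-11; soma -0.79), and the other member that fell was FSTL1 (-0.65). In control neurites of the TDP-43 experiment TNC had a mean of 23.7 CPM and RELN 308 CPM, a description across experiments with no test.

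Membrane proteins of long genes fell more often than they rose. Of all genes tested 7.21% fell and 8.96% rose. Of 36 neuronal adhesion genes 13 fell and 3 rose (median log2 change -0.11), of 44 guidance genes 13 fell and 5 rose (-0.04), and of 43 voltage-gated channel genes 14 fell and 2 rose (-0.08). With the ribosomal RNA covariate the numbers were 14 lower and 2 higher, 10 and 0, and 8 and 0. In the main fit the share that rose was near that of all genes for adhesion and guidance genes and below it for channels. CNTN1, an axonal adhesion molecule, fell by 0.53 ± 0.06 (adjusted p = 2.7e-07), and CDH8, a cadherin, by 0.71 ± 0.09 (adjusted p = 8.1e-07). CDH8 had 56.4, 59.9 and 62.6 CPM in controls and 29.002, 33.9 and 54.7 CPM in knockdown, where sample 4 held the 54.7 CPM. CNTNAP3 (0.88) and CNTNAP3B (0.74), which rose, are near copies of each other and their split is uncertain. Among guidance genes UNC5D (-0.72), EPHA5 (-0.69), SLIT3 (-0.61) and PLXNA4 (-0.49) fell, while the netrin receptors UNC5A (0.70) and UNC5B (0.77) rose. UNC5D had 44.6, 46.9 and 55.6 CPM in controls and 27.1, 28.3 and 33.8 CPM in knockdown, so members of 1 receptor family moved apart. Potassium channel KCNH7 went from 70.3, 74.5 and 85.7 CPM to 50.8, 52.9 and 63.3 CPM (-0.50 ± 0.07, adjusted p = 2.7e-06), and the sodium channels SCN2A (-0.37) and SCN3A (-0.29) and KCNQ3 (-0.43), a subunit of the M current, fell.

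At the synapse, calls went both ways, where of all genes tested 8.96% rose and 7.21% fell. Of 45 presynaptic genes 10 rose and 12 fell (4 and 21 without TMM factors, 1 and 8 with the ribosomal RNA covariate). SLC17A7, the vesicular glutamate transporter VGLUT1, had 57.7, 61.7 and 67.8 CPM in controls and 88.8, 107 and 112 CPM in knockdown, without overlap (log2 change 0.77 ± 0.06, adjusted p = 2.3e-10; soma 0.47). SLC17A6, which encodes VGLUT2, fell by 0.20 ± 0.05 (adjusted p = 0.0068). SYT2 (0.50), the fast calcium sensor, and CPLX1 (0.38), complexin, rose, and the active zone genes ERC2 (-0.39), RIMS1 (-0.39), RIMS2 (-0.35) and PCLO (-0.31) and the synapsin SYN3 (-0.53) fell. Of 35 dendritic and postsynaptic genes 9 fell and 2 rose, the share that rose no larger than that of all genes. GRIN2B, an NMDA receptor subunit, had 30.3, 33.5 and 36.6 CPM in controls and 16.3, 21.9 and 25.6 CPM in knockdown, with no overlap (-0.64 ± 0.09, adjusted p = 1.2e-05). HOMER3, a scaffold of metabotropic glutamate receptors, rose by 0.48 ± 0.08, while HOMER1 fell by 0.28 ± 0.06. With the ribosomal RNA covariate 1 postsynaptic gene rose and 1 fell.

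**Figure D3:**
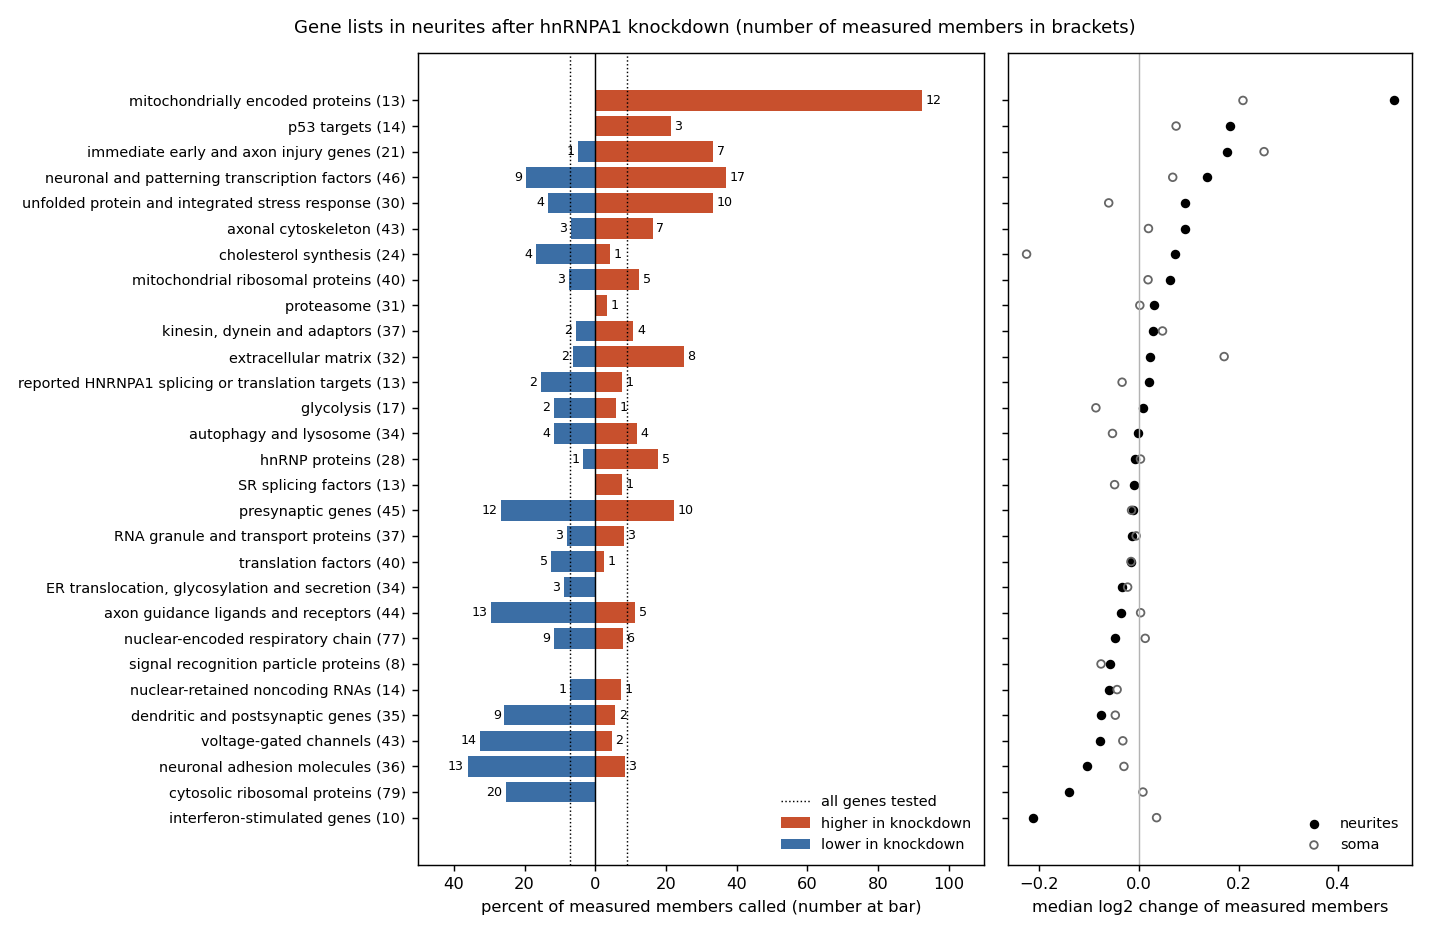
For 29 gene lists, the percent of measured members called higher or lower in knockdown neurites, with the numbers of genes (left), and the median log2 change in neurites (filled) and soma (open) (right). Dotted lines give 8.96% and 7.21%, the share of all genes called higher and lower; mitochondrially encoded proteins stand at 12 of 13 higher, and cytosolic ribosomal proteins at 20 of 79 lower.

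Of the 13 mitochondrially encoded proteins 12 rose and none fell, with a median log2 change of 0.51 in neurites and 0.21 in soma, where none was called. The difference between fractions was called for none of the 13 either (MT-CO3 interaction 0.36, edgeR adjusted p = 0.499). MT-CO3, a subunit of cytochrome c oxidase, had 2477, 2763 and 3429 CPM in controls and 3145, 4659 and 5531 CPM in knockdown, so the groups overlapped (0.66 ± 0.11, adjusted p = 0.00012). These genes are cut from long shared transcripts of the mitochondrial chromosome, so they are not independent, and the calls fell to 2 with the 7SL covariate and to 0 with the ribosomal RNA covariate. Of 77 nuclear genes of the respiratory chain 6 rose and 9 fell (8.96% and 7.21% of all genes; 2 rose without control sample 1 or 3 or without knockdown sample 1, and 4 fell without control sample 2). The small subunits ATP5MF (-0.41) and ATP5MG (-0.42) of ATP synthase were among the lower ones. Of 40 nuclear genes for mitochondrial ribosomal proteins 5 rose and 3 fell (median log2 change 0.06), the lower share near that of all genes.

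Of 79 cytosolic ribosomal proteins 20 fell and none rose (median log2 change -0.14), where 7.21% of all genes fell and 8.96% rose. In soma 2 were lower, where 3.3% of all genes fell, and the median was 0.01. The difference between fractions was called for none of the 79. The number lower in neurites was 59 without TMM factors, 55 with the 7SL covariate, 10 with the ribosomal RNA covariate and 32 without control sample 3. RPS24, of the small subunit, had 386, 431 and 513 CPM in controls and 247, 319 and 359.8 CPM in knockdown, without overlap (-0.49 ± 0.08, adjusted p = 0.00012; soma -0.05), but the difference between fractions was not called (adjusted p = 0.17). RPL26 (-0.42) also fell, and the elongation factor EEF1A1 fell by 0.28 ± 0.08 (adjusted p = 0.012). These genes have many pseudogenes, and the sources used here do not give how reads that match several places were treated. In the same libraries ribosomal RNA took a higher share of the counts, which does not measure its amount in the neurites.

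Of 30 genes that respond to unfolded proteins or through the integrated stress response 10 rose and 4 fell, which became 6 and 9 without TMM factors and 0 and 3 with the ribosomal RNA covariate. Over all genes 8.96% rose and 7.21% fell. DDIT3, the transcription factor CHOP, had 16.4, 18.1 and 20.6 CPM in controls and 19.1, 27.1 and 32.0 CPM in knockdown, with overlap (0.54 ± 0.09, adjusted p = 0.0001). CEBPB (0.59), TRIB3 (0.55), SESN2 (0.43) and ATF3 (0.38) rose, and the endoplasmic reticulum chaperone HSPA5 fell by 0.18 ± 0.05. In soma none of these 6 genes was called, but the difference between fractions passed edgeR's test for none of them (DDIT3 adjusted p = 0.595, SESN2 0.123). Among 21 immediate early and axon injury genes 7 rose and 1 fell (3 and 2 without TMM factors), JUND by 0.55 ± 0.08 and ARC, which encodes a capsid-like synaptic protein, by 0.54 ± 0.12. Of 14 targets of p53 measured 3 rose, led by BBC3, which encodes the cell death protein PUMA (0.85 ± 0.13, adjusted p = 2.2e-05). None of 10 interferon-stimulated genes measured was called. Of 34 autophagy and lysosome genes 4 rose and 4 fell (8.96% and 7.21% of all genes). SQSTM1, the autophagy receptor p62, went from 44.2, 47.9 and 52.6 CPM to 60.8, 63.7 and 69.1 CPM, without overlap (0.43 ± 0.07, adjusted p = 6.9e-05). ATP6V0C (-0.87 ± 0.18, edgeR adjusted p = 0.0011) and GABARAP (-0.46 ± 0.16, edgeR adjusted p = 0.039) fell. The GABARAP call was lost without some single libraries (adjusted p up to 0.14).

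Of 28 hnRNP genes 5 rose and HNRNPA1 alone fell, and without TMM factors none rose and 12 fell. Over all genes 8.96% rose and 7.21% fell. HNRNPA3, the close relative of HNRNPA1 in the A/B family, had 125, 144 and 165 CPM in controls and 174, 184 and 189 CPM in knockdown, without overlap (log2 change 0.34 ± 0.06, adjusted p = 0.0004; soma 0.26), a call lost without TMM factors. HNRNPF (0.25), RALY (0.28), HNRNPA0 (0.15) and PCBP1 (0.28) were also called, 3 of the 5 without control sample 1 or control sample 3. Of 13 genes that reports name as targets of HNRNPA1 in splicing or translation 10 were not called, and the median log2 change was 0.02. HRAS rose by 0.39 ± 0.08 (adjusted p = 0.00085), 1 of 13 being near the 8.96% of all genes, and FGF2 (-0.49) and CCND1 (-0.40) fell. Counts per gene do not show which exons were used. Of 37 genes for RNA granule and transport proteins 3 rose and 3 fell, near the shares of all genes. YBX3, a cold shock domain protein of RNA granules, rose by 0.81 ± 0.10 (adjusted p = 1.1e-06; soma 0.54). Its more abundant relative YBX1 (-0.28 ± 0.08, edgeR adjusted p = 0.018) and STAU2 (-0.27 ± 0.06, edgeR adjusted p = 0.0031) fell. Without single libraries the adjusted p of YBX1 went up to 0.0554. In the axonal cytoskeleton 7 of 43 genes rose and 3 fell, the lower share near the 7.21% of all genes. However, 3 rose and 13 fell without TMM factors and 3 rose and 4 fell without control sample 3, and the 7 became 4 without control sample 1. STMN4, a microtubule destabiliser, went from 202, 213 and 234 CPM to 283, 287 and 294 CPM (0.41 ± 0.05, adjusted p = 2.7e-06), and ANK3, ankyrin-G of the axon initial segment, fell by 0.41 ± 0.09 (adjusted p = 0.0013; soma -0.04). For ANK3 the difference between fractions was not called (edgeR adjusted p = 0.30).

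The effect in neurites differed from that in soma for 35 genes (0.177% of those tested), 9 with a higher neurite effect (0.0454%) and 26 with a lower one (0.131%), and 1800 genes had an unadjusted p under 0.05. The count ran from 12 to 55 when single neurite libraries were left out. SV2C, a synaptic vesicle glycoprotein, had 20.6, 26.2 and 29.8 CPM in control neurites and 11.8, 14.2 and 16.03 CPM in knockdown neurites. The groups did not overlap (-0.87 ± 0.10, adjusted p = 1.6e-07), and in soma the change was -0.12 ± 0.10 (interaction -0.75, adjusted p = 0.016). UNC13C, which primes synaptic vesicles, had 110.3, 125 and 139 CPM against 53.9, 71.9 and 91.2 CPM (-0.80 ± 0.08; soma -0.20; interaction -0.61, adjusted p = 0.021). SLC8A1, a sodium-calcium exchanger, had 267, 282 and 291 CPM against 164, 187 and 202 CPM (-0.60 ± 0.05; soma -0.18; interaction -0.42, adjusted p = 0.008). In both genes every knockdown library was below every control. ATRNL1 fell by 0.90 ± 0.08 in neurites and 0.38 in soma (interaction -0.52, adjusted p = 0.03). ESRRG, an orphan nuclear receptor, fell in neurites (-0.47 ± 0.10) and had 0.21 ± 0.08 in soma, not called (interaction -0.67, adjusted p = 0.016).

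CRABP1, a retinoic acid binding protein, was the 1 gene called in opposite directions in neurites and soma. It had 59.5, 69.8 and 75.6 CPM in control and 49.3, 58.7 and 72.0 CPM in knockdown neurites, which overlapped (-0.24 ± 0.08, adjusted p = 0.032), while it rose in soma by 0.44 ± 0.07 (interaction -0.68, adjusted p = 0.0039). Its neurite call was lost without control sample 1, 2 or 3 or knockdown sample 1, 2 or 5 (adjusted p up to 0.097), whereas the interaction was called each time. TGFB1, the growth factor, had 10.5, 11.4 and 12.6 CPM in control and 17.6, 23.5 and 28.5 CPM in knockdown neurites, without overlap (1.04 ± 0.10; soma 0.35; interaction 0.69, adjusted p = 0.03). BTBD17 (0.78 in neurites, 0.09 in soma; interaction adjusted p = 0.03) and RHOC (1.01 and 0.19; interaction adjusted p = 0.0499) had interactions in the same direction. The interactions of these 3 genes were lost without TMM factors. Without single libraries their adjusted p went up to 0.0854 for TGFB1 (lost without control 2, 3 or 4 or knockdown 2, 3 or 5), 0.0949 for BTBD17 (the same and control 1) and 0.135 for RHOC (those of BTBD17, control 5 and knockdown 1).

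**Figure D4:**
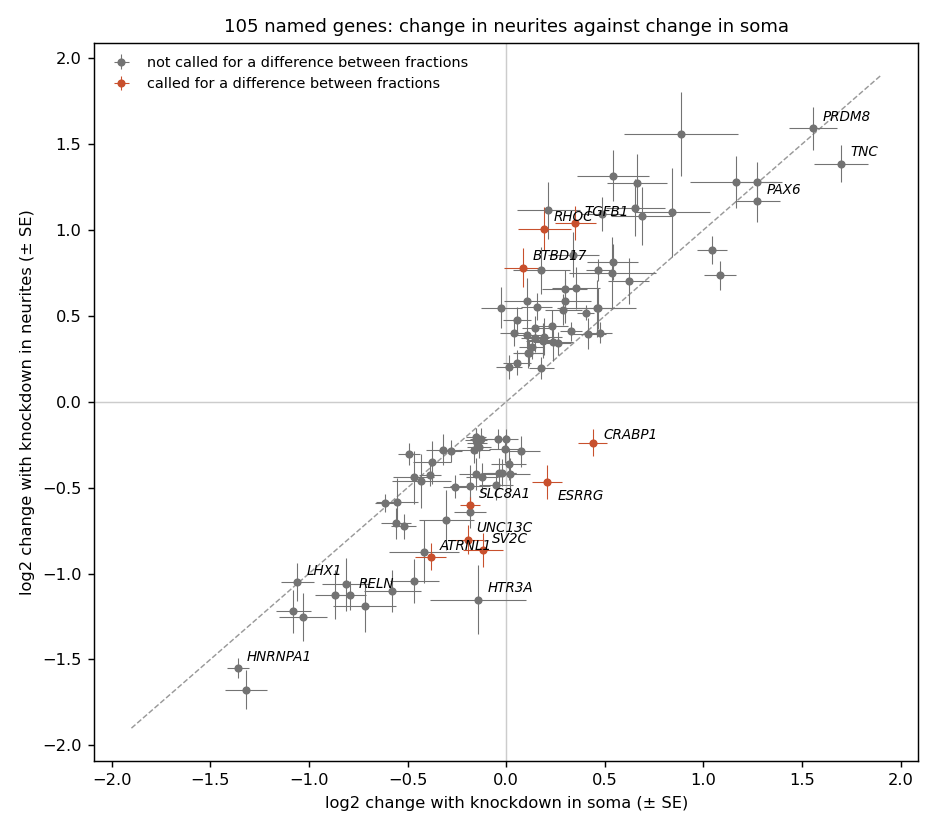
Log2 change on knockdown in soma (x axis) and in neurites (y axis) of the named genes, with standard errors; the dashed line marks equal change, and colour marks the 9 genes whose change differed between the fractions. SV2C and UNC13C lie at -0.87 and -0.80 in neurites and at -0.12 and -0.20 in soma, and HNRNPA1 is low in both.

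Calls varied with the length of the gene. When protein-coding genes were put into 5 groups of equal size by genomic span, from a median of 5.77 kb to one of 191 kb, 15.6% of the shortest rose and 3.60% fell, while 7.28% of the longest rose and 20.9% fell. The median log2 change went from 0.10 to -0.08. Level and base composition moved with span: the median control level was 11.2 CPM in the shortest and 34.5 CPM in the longest group, and the median GC content 56.8 and 44.9%. Their part in the calls was not tested. Of all genes tested 8.96% rose and 7.21% fell in neurites, and 3.79% rose and 3.3% fell in soma. In soma 101 of the 2776 shortest rose and 69 fell, and 153 of the 2775 longest rose and 225 fell. The longest thus rose more often than the shortest in soma, unlike in neurites. The shortest group had 433 higher and 100 lower calls in neurites, which became 261 and 110 without control sample 3 and 80 and 36 with the ribosomal RNA covariate. The longest had 202 higher and 581 lower calls, which became 140 and 613 and, with the covariate, 50 and 221. Without TMM factors 166 of the shortest rose and 317 fell, so the direction of that group depends on the scaling. Genes that rose had a median span of 21.5 kb and transcripts of 58.6% GC, and genes that fell 97.9 kb and 42.9%, against 34.9 kb and 48.9% for all. Of the lists above, adhesion genes had a median span of 349 kb (32 of 36 in the longest group), channels 181 kb and guidance genes 180 kb, and cytosolic ribosomal protein genes 5.38 kb, and the latter fell while more short genes rose than fell.

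**Figure D5:**
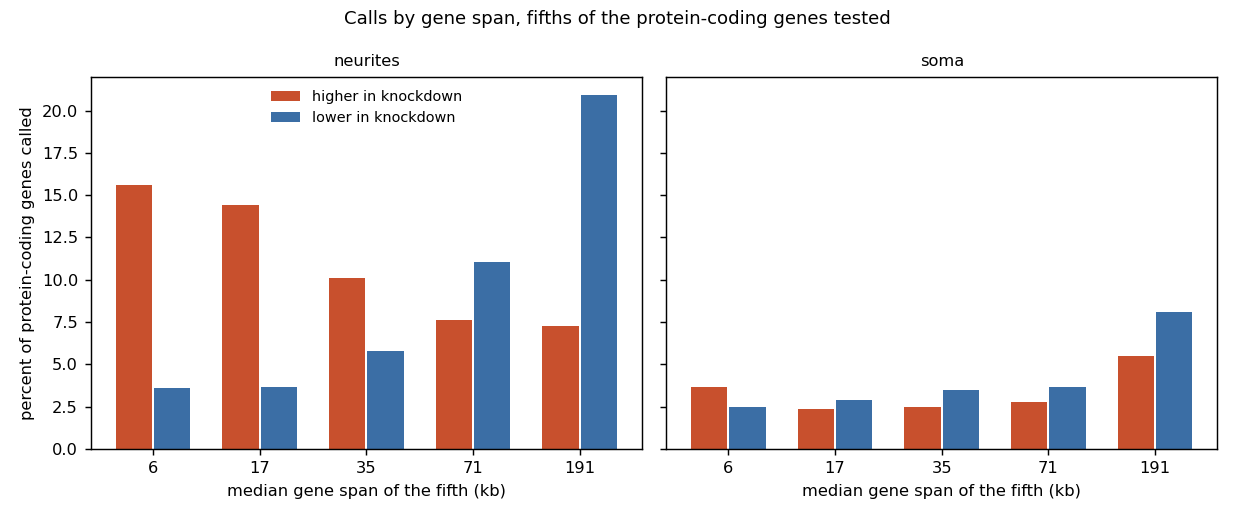
Percent of protein-coding genes called higher or lower on knockdown (y axis) in 5 groups of equal size by genomic span (x axis, median span in kb), in neurites (left) and soma (right). In neurites the share called lower goes from 3.60% in the shortest to 20.9% in the longest group.

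Small noncoding RNA genes had few lower calls, where 7.21% of all genes tested fell. Of 89 snoRNA genes, most of which lie in introns of other genes and act in the nucleolus, 19 rose and none fell (median log2 change 0.46, soma 0.58). Of 55 snRNA genes 5 rose, a share near the 8.96% of all genes, and none fell (0.40, soma 0.75), and of 97 genes of the miscellaneous class, which holds 7SL, 24 rose and 1 fell (0.41, soma 0.39). Of 2988 lncRNA genes 77 rose and 99 fell (-0.03), smaller shares than the 8.96% and 7.21% of all genes.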

How the data were processed

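Total RNA libraries were made by the submitters, per the labels' protocols, with version 3 of a low-input kit for knockdown experiments and version 2 for untreated cells. The deposited table holds expected counts for 63241 genes. The submitters' processing notes list STAR 2.7.11b, featureCounts (Subread 2.0.6) and the hg38 build. Not given in the sources used here are the annotation release, the strand setting and how reads that match several places were treated. Of the nonzero deposited values 81.1% were whole (within 0.005), and all were rounded here.

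Groups came from the sample titles. Genes were tested with edgeR 4.0.16 (R 4.3.3; TMM, filterByExpr, quasi-likelihood F test, Benjamini-Hochberg over 19812 genes, threshold 0.05) on 24 libraries with 1 coefficient per group. CPM were scaled to 1e6 counts after the TMM factors were applied, and ± beside a log2 change is its standard error. For edgeR that was the absolute log2 change over the square root of the F statistic. Shares were compared by 2-sided exact permutation of 6 against 6 libraries, adjusted over 9 measures. The test was tried on simulated counts first. Libraries of 1 group were compared in 30 pairs by the chi-square of their counts divided by its degrees of freedom, for genes reaching 20 counts (1.91 to 31.3). None was a copy, and control sample 3 gave 16.5 to 31.3 against the other controls, which gave at most 12.0 among themselves. 62030 genes were named from a list of names, and types, spans and transcripts came from GENCODE release 29 (58228 identifiers matched).

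Named genes were HNRNPA1; of coding and lncRNA genes called, with at least 5 CPM in the higher group and no overlap, the 12 highest, 12 lowest and 10 with the smallest p; up to 3 called members of each of 35 lists; and the 6 largest interactions of genes also called in neurites with at least 5 CPM. Other list members were named after their values were seen. The members and lists were chosen with earlier results of these data known. Y-linked genes and XIST were left out of naming. Alternatives were RLE factors, plain library sizes, other filters, DESeq2 1.42.0, limma-voom (limma 3.58.1), the sample number as a block, 7SL and rRNA genes removed or their shares as covariates, unrounded counts, neurites alone, and each neurite library left out. Sample numbers did not pair control with knockdown neurites. Some genes and sequences that the rules select are not reported here.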

Additional observations from a re-analysis of the deposited data

Results flagged for a closer look

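Of 228 groups of 6 libraries checked, 18 had a library far from the others by Dixon's criterion at the 95% level, which chance alone also meets in a small share of groups. Control sample 3 had the lowest 7SL share, 5.55% of counts, and the lowest share of the 10 most abundant genes, 10.2%. Knockdown sample 4 was lowest of its group for TNC (93.0 CPM), PPP1R14A (6.01 CPM), NEUROD4 (22.7 CPM), UNC5B (13.9 CPM) and NES (519.8 CPM) and highest for CDH8 (54.7 CPM), in each case the knockdown library nearest to the controls, while its HNRNPA1 level was 192 CPM, within the range of the group. Control sample 6 was highest for PRPH (8.75 CPM), HTR3A (10.0 CPM) and TAL1 (10.1 CPM), and knockdown sample 5 lowest for TAL1 (2.705 CPM). Knockdown sample 2 was lowest for PCBP1 (30.6 CPM). Control sample 4 was highest for MRPS18A (14.6 CPM). Knockdown sample 6 was highest for ANK3 (1622 CPM) and KCNC2 (5.09 CPM). Knockdown sample 3 was highest for KCNH7 (63.3 CPM) and GABARAP (16.6 CPM).

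The effect of the knockdown differed between neurites and soma by the interaction test for 9 named genes. The log2 differences, neurites minus soma, were -0.42 for SLC8A1, -0.52 for ATRNL1, -0.75 for SV2C, -0.68 for CRABP1, -0.67 for ESRRG and -0.61 for UNC13C, and 0.81 for RHOC, 0.69 for BTBD17 and 0.69 for TGFB1.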

How the results depend on the processing

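Over the named genes and 24 alternatives, 2338 values kept direction and call, 176 lost the call and 2 reversed, and 53 genes kept the call under every alternative. Both reversals came with the ribosomal RNA covariate, SRSF4 at -0.0137 and GABARAP at 0.25; the cause was not tested. Main counts in neurites were 1775 higher and 1428 lower, 55.4% higher. Plain library sizes gave 605 higher and 3825 lower (13.7% higher), no filter on low counts 1130 higher (42.2%), the 7SL covariate 1921 in all with 819 higher (42.6%), the ribosomal RNA covariate 711 with 285 higher and 426 lower (40.1%), and leaving out control sample 3 gave 43.62% higher. Leaving out single libraries gave 2243 to 3392 calls, 1080 to 1866 higher and 1039 to 1526 lower. For the interaction, against 35 (9 higher, 26 lower), library sizes gave 71 with 64 lower, no filter 140 with 35 higher and 105 lower, DESeq2 77 with 21 and 56, and single libraries left out 12 to 55, 2 to 28 higher and 10 to 38 lower: 14 without control sample 1, 15 without control 2, 14 without control 4, 12 without knockdown 2, 14 without knockdown 5 and 55 without knockdown 4 or 6. The cause was not tested.

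Numbers in the labels do not pair control with knockdown neurites: same-numbered control and knockdown neurites had correlations of their deviations from -0.009 to 0.045, and 1 of 6 correlated best with its own number. Between neurites and soma of equal number they ran from -0.189 to 0.333 in controls and -0.0018 to 0.134 in knockdown, highest for control sample 3 and knockdown sample 4. With the replicate block 3559 genes were called in neurites and 54 in the interaction, 18 higher. In the block permutation of shares, where differences are the same and 6 pairs limit p, no measure passed: 7SL 3.72 points (adjusted p = 0.0938, exact), nuclear rRNA 0.907 (0.0703), mitochondrial rRNA 1.07 (0.0804), mitochondrial messages 1.173 (0.0938), ribosomal protein messages -0.424 (0.0703), nuclear-retained RNAs -0.0397 (0.0804), the 10 most abundant genes 5.36 (0.0804), total counts -3986530 (0.0703) and genes with 5 counts -3203 (0.0703). Nuclear-retained RNAs lost the call with 7SL and rRNA out of the denominator (-0.0241 points). Leaving out single libraries moved 7SL between 2.76 and 4.53 points and nuclear-retained RNAs between -0.0458 and -0.0278, and both lost the call in some (the latter without knockdown sample 1 or 6). The lower depth of knockdown libraries limits calls of genes at low counts.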

Other observations

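2 genes with an interaction stood outside the rule for named genes, since they were not called in neurites, and were chosen after their values were seen. HK2, hexokinase 2, had 4.62 ± 2.06 CPM in control and 0.749 ± 0.383 CPM in knockdown soma (SD, n = 6 each; log2 change -2.54 ± 0.30, edgeR adjusted p = 3.79e-07). In neurites it had 2.04 ± 0.450 and 2.39 ± 1.07 CPM and was not called (0.22 ± 0.34; interaction 2.75, adjusted p = 0.00799). TXNIP, an inhibitor of thioredoxin that responds to glucose, had 34.8 ± 2.67 and 56.4 ± 3.65 CPM in soma (0.70 ± 0.08, adjusted p = 1.64e-07) and 118.5 ± 13.6 and 118.2 ± 16.4 CPM in neurites (-0.0027 ± 0.08; interaction -0.70, adjusted p = 0.00386). Of 17 glycolysis genes measured 1 rose and 2 fell in neurites, and 4 fell in soma, where 3.3% of all genes fell. In neurites 8.96% of all genes rose and 7.21% fell. Of 24 cholesterol synthesis genes 1 rose and 4 fell in neurites, and 10 fell in soma, where the median log2 change was -0.23 against 0.07 in neurites.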
